A study of Homo sapiens with 22 samples.

Results

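The genes described here are 47 human genes whose products shorten, decap and degrade messenger RNA. They were chosen by symbol, as a list of subunits of the deadenylase, decapping and exosome machineries and their close cofactors, drawn up with earlier results of these data known. Each symbol was found once in the gene tables, 47 of 58870 genes in the siRNA tables and 47 of 57820 in the actinomycin D tables. All 47 passed the filter on low counts in both experiments. By role the list held 15 deadenylation genes, 17 decapping and 5′ decay genes, and 15 exosome and Ski genes.

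The libraries came from a pair of colorectal cancer cell lines, LS180 and HCT116, in a series on Staufen1, a protein that binds RNA duplexes, and FOXA1 mRNA. In the first experiment STAU1 was silenced in LS180 cells by siRNA (siSTAU1) for 72 h and then another 72 h, beside cells given control siRNA (siCTRL), with n = 2 polyA RNA libraries in each group. In the second, LS180 and HCT116 cells, with no siRNA named in their labels, were exposed to actinomycin D, which blocks transcription, at 5 µg/ml for 0, 2 or 4 h, with n = 3 total RNA libraries in each of 6 groups. The labels do not say that replicates were separate cultures, so the p-values measure the spread between these libraries, which may be technical.

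A messenger RNA is usually degraded from its ends. CCR4-NOT and PAN2-PAN3 remove the poly(A) tail, and TOB proteins bridge CCR4-NOT to the poly(A)-binding protein. The LSM1 to LSM7 ring and PATL1 then bind the shortened tail and help DCP2, with its partner DCP1, to remove the cap, after which XRN1 digests the body from the 5′ end. The exosome digests RNA from the 3′ end, with the Ski complex feeding it in the cytoplasm.

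Library depth was 23730038 to 26658687 counts for siRNA and 47842288 to 61417789 counts for actinomycin D. STAU1, which checks the siRNA labels, stood at 144.3 and 140.9 CPM (counts scaled to library size) in siCTRL and at 9.70 and 9.17 CPM in siSTAU1, a 15.1-fold fall (edgeR adjusted p = 2.15e-12). Epithelial markers were present in LS180 (10.8 to 331 TPM at 0 h, a level scaled to transcript length and library size). In HCT116 at 0 h KRT8, KRT18, KRT19 and EPCAM were at 442, 431, 202 and 93.1 TPM. CDH1 was at 4.02 TPM there, CDX2 at 2.57 TPM and VIL1 at 0.00333 TPM. Mean levels of fibroblast and endothelial markers reached at most 0.39 TPM in any group. Of the immune markers CD68 was at 14.6 TPM in siCTRL and 12.3 TPM in siSTAU1, with PTPRC and CD3E at or near 0. Among the LS180 4 h libraries, library 1 stood apart from libraries 2 and 3: their TMM factors, which scale each library's depth, were 1.00, 0.864 and 0.812. Levels below are TMM-scaled CPM unless TPM is named, and a change is a log2 fold change with its standard error (SE). Genes called had an edgeR adjusted p under 0.05 over all genes tested.

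Because the second experiment follows mRNA after transcription stops, short 3′ UTR motifs linked to decay are shown for the members that fell in both lines at 4 h and hold one. The motifs are TATTTAT, the core of an AU-rich element, and TGTANATA, the Pumilio element. Only the transcript strand was searched, matches were allowed to overlap, and the matched letters are in capitals below (U in the RNA is written T). The first match in each gene is given with its GRCh38 position.
TOB2 (chr22:41435381-41435407, minus strand): cgcaagtcctTATTTATatgtgaggct
DCP1A (chr3:53286443-53286469, minus strand): ccatgatttcTATTTATtcttttatgg
EXOSC6 (chr16:70250175-70250201, minus strand): attcatttgcTATTTATtctcttctgg
CNOT6L (chr4:77719679-77719705, minus strand): ctctcaagttTATTTATagagaaaaag
CNOT8 (chr5:154875629-154875656, plus strand): gctctgaattTGTAAATAagtcttcccc
CNOT2 (chr12:70354643-70354670, plus strand): tgtacgaatgTGTATATAttatatatat
PNRC2 (chr1:23962636-23962663, plus strand): gaaagagccaTGTAAATAtctgtaataa
EXOSC9, which fell in LS180 but was not called in HCT116, is added because its 53-base 3′ UTR holds both motifs:
EXOSC9 Pumilio element (chr4:121816865-121816892, plus strand): gttgtatatcTGTATATAtaactattaa
EXOSC9 AU-rich core (chr4:121816889-121816909, plus strand): ttaaaagggaTATTTATtcca

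A 3′ UTR was annotated in the transcripts used for 46 of the 47 members, all but CNOT4. TATTTAT occurred in 16 of the 46 (34.8%) against 28.9% of 18888 genes, and TGTANATA likewise in 16 (34.8%) against 23.4%. Of UTRs of like length (0.8 to 1.25 times as long), 0.829% held TATTTAT for the short UTR of EXOSC9 and 66.6% for the 4304-base UTR of EXOSC6, which has 6 matches, some sharing bases. No UTR of the 7 LSM genes held TATTTAT. Of the 11 members that fell in both lines at 4 h and have a UTR, 5 held TATTTAT, 5 held TGTANATA and 4 held neither (TOB1, DCP1B, EXOSC3 and EXOSC4). Of the 14 that rose in both, 4 held TATTTAT and 6 held TGTANATA. In LS180 at 4 h the median change was -0.15 for 15 members with TATTTAT and 0.02 for 30 without it, beside -0.13 and 0.05 over all genes. In HCT116 these medians were 0.005 and 0.16, beside -0.02 and 0.09. For 16 members with TGTANATA and 29 without it they were -0.12 and -0.003 in LS180, beside -0.15 and 0.04 over all genes. In HCT116 the TGTANATA medians were 0.10 and 0.13, beside -0.05 and 0.09. A match is a description of the sequence and not a measured site.

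Levels per transcript length at 0 h ranged widely among the members. The LSM ring, small proteins that together form a heptamer, had the highest median, 34.5 TPM in LS180 and 27.4 TPM in HCT116. LSM4 was the most abundant member in both lines, at 102 TPM in LS180 and 89.6 TPM in HCT116. Exosome core and catalytic subunits had medians of 12.1 and 16.4 TPM, and CCR4-NOT subunits 7.96 and 6.47 TPM. The exonuclease XRN1 was at 1.58 TPM in LS180 and 1.71 TPM in HCT116, while XRN2, its nuclear relative, was at 20.5 and 28.2 TPM.

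**Figure D1:**
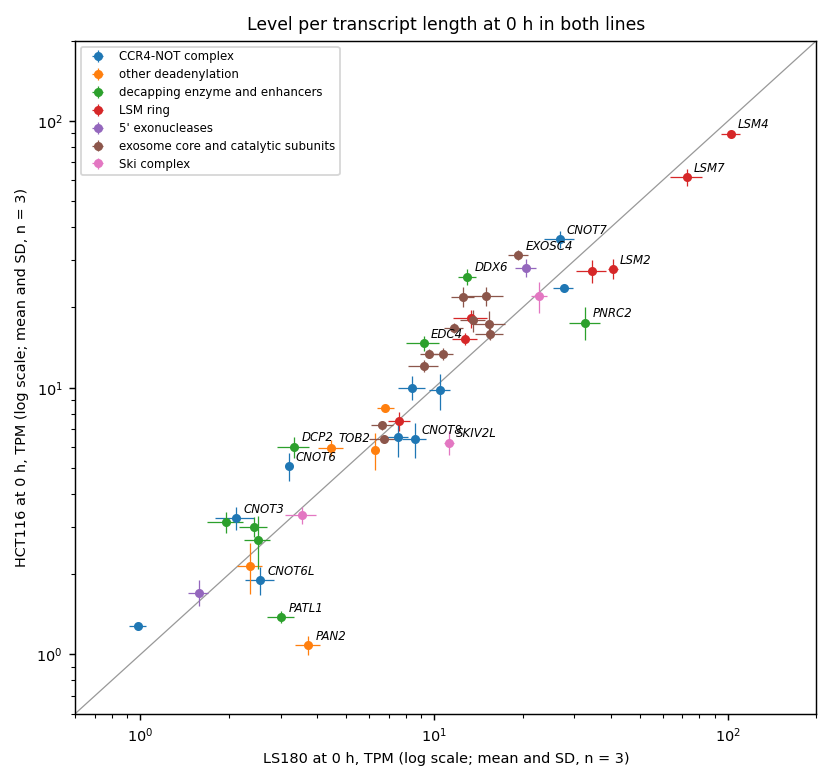
Mean TPM of each of the 47 members at 0 h in LS180 (x axis) and HCT116 (y axis), both on log scales, with bars for the SD of 3 libraries and a grey line of equality. PAN2, PATL1, PNRC2 and SKIV2L lie below the line, and DDX6, DCP2 and the exosome core mostly above it.

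At 0 h, 24 members were higher in HCT116 than in LS180 (51.1%, against 33.7% of all genes). Another 13 were lower (27.7%, against 42.6%). The share higher thus lay above that of all genes and the share lower below it. With RLE factors, DESeq2 or no filter on low counts 7 members were lower, and on the scale of ribosomal protein genes 6. Over all genes 7343 were lower as reported. In those fits 6544 (RLE factors), 6486 (DESeq2), 6978 (no filter) and 5341 (ribosomal protein genes) were lower. The median change over the members was 0.19, beside -0.10 over all genes, and with RLE factors 0.31 beside 0.02. In these bulk libraries fewer cells that express a gene and less of its RNA per cell cannot be told apart.

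Among deadenylation genes, PAN2, the catalytic subunit of PAN2-PAN3, was at 27.4, 27.0 and 28.0 CPM in LS180 and 6.24, 6.26 and 6.88 CPM in HCT116. The libraries did not overlap, and PAN2 was 4.26-fold lower in HCT116 (log2 change -2.09, SE 0.093; edgeR adjusted p = 2.15e-13). The CCR4-type deadenylase paralogs went opposite ways: CNOT6 was 1.48-fold higher in HCT116 and CNOT6L 1.78-fold lower, with no overlap for either. CNOT3, a CCR4-NOT scaffold subunit, was 1.36-fold higher and TOB2 1.3-fold higher, whereas the deadenylase CNOT8 was 1.35-fold lower.

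In the decapping group, the helicase DDX6 was at 130.1, 130.2 and 132.9 CPM in LS180 and 243.1, 265.2 and 257.4 CPM in HCT116, 1.95-fold higher with no overlap (edgeR adjusted p = 1.04e-11). The decapping enzyme DCP2 was 1.94-fold higher in HCT116, and the scaffold EDC4 1.65-fold higher. PATL1 was 2.26-fold lower, the decapping coactivator PNRC2 2.00-fold lower and LSM2 1.48-fold lower. These directions held under every alternative tried.

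Of the 15 exosome and Ski genes 8 were higher in HCT116 and 2 lower, against 33.7% and 42.6% of all genes. Of the 12 core and catalytic subunits 8 were higher and 0 lower, and of the 3 Ski genes 0 were higher and 2 lower. The core subunit EXOSC7 was at 27.6, 27.9 and 29.6 CPM in LS180 and 45.7, 48.9 and 45.6 CPM in HCT116, 1.65-fold higher (edgeR adjusted p = 1.67e-09), and EXOSC4 was 1.56-fold and EXOSC3 1.40-fold higher. The Ski helicase SKIV2L was lower instead, at 56.6, 58.4 and 56.4 CPM against 30.9, 30.5 and 30.8 CPM, a 1.86-fold difference without overlap. WDR61, a Ski subunit, was 1.2-fold lower, but scaled to ribosomal protein genes its change was 0.01.

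After silencing of STAU1 the members shifted by small amounts in both directions. Of the 47, 10 rose (21.3%, against 23% of all genes) and 13 fell (27.7%, against 23%), so the counts lie near the background. The median change was -0.02, beside 0.00 over all genes, and no member moved by more than 0.45 on the log2 scale.

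Of the 10 CCR4-NOT subunits 4 fell and 1 rose, against 23% of all genes in each direction. The scaffold CNOT1 was at 466.7 and 470.4 CPM in siCTRL and 403.9 and 404.3 CPM in siSTAU1, 1.16-fold lower without overlap (edgeR adjusted p = 0.000297). CNOT3 went from 44.6 and 43.3 to 35.0 and 33.1 CPM, a 1.29-fold fall (edgeR adjusted p = 0.000513). PARN, a poly(A)-specific ribonuclease, fell 1.19-fold, a call lost without siCTRL library 2 (edgeR adjusted p = 0.0567). The deadenylase CNOT7 rose 1.2-fold, from 152 and 155.1 to 184.4 and 182.7 CPM.

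In the decapping group 7 rose and 5 fell of 17, against 23% of all genes in each direction. PNRC2 stood at 193.1 and 191.6 CPM in siCTRL and 259.3 and 263.7 CPM in siSTAU1, a 1.36-fold rise (log2 change 0.44, SE 0.033; edgeR adjusted p = 1.3e-06). DCP2 rose 1.28-fold, from 31.1 and 32.4 to 43.7 and 37.4 CPM, a call lost with an effective length offset. DDX6 went the other way, from 183 and 175.1 to 135 and 130.1 CPM, 1.35-fold lower (edgeR adjusted p = 4.38e-06). Both 5′ exonucleases fell, XRN1 by 0.26 and XRN2 by 0.13, and EDC4 fell by 0.19. In TPM the groups overlapped for XRN1 (3.05 and 3.13 in siCTRL, 2.38 and 3.24 in siSTAU1) and for EDC4, but not for XRN2. Of the LSM ring 4 of 7 rose, against 23% of all genes. LSM4 was 1.19-fold higher, at 209 and 210.3 CPM in siCTRL and 247.5 and 251.9 CPM in siSTAU1.

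Exosome and Ski genes gave 2 rises and 3 falls of 15, against 23% of all genes in each direction. TTC37, the Ski scaffold, was at 19.3 and 19.1 CPM in siCTRL and 14.8 and 13.3 CPM in siSTAU1, 1.36-fold lower (edgeR adjusted p = 0.000825, and 0.0775 with an effective length offset). The nuclear exonuclease EXOSC10 fell by 0.22 and the catalytic subunit DIS3 by 0.18. EXOSC8 rose by 0.20 and EXOSC4 by 0.19, and EXOSC4 turned to -0.01 when scaled to ribosomal protein genes. Of the 23 calls, those of CNOT1, CNOT3, DDX6 and PNRC2 held under every alternative. Scaled to ribosomal protein genes, which moves the median of all genes to -0.20, 1 member rose and 23 fell. Without siCTRL library 1, 4 rose and 7 fell, and without siCTRL library 2, 6 rose and 7 fell.

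**Figure D2:**
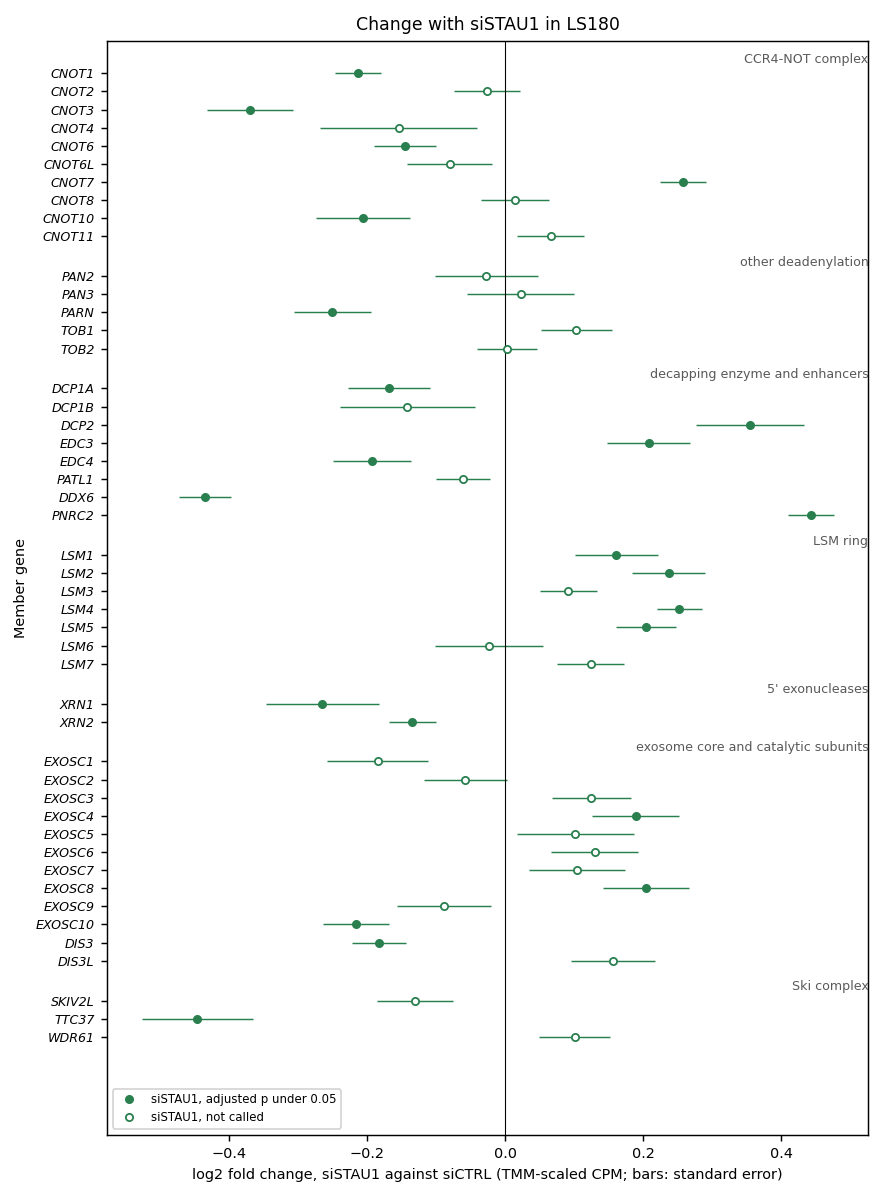
Log2 fold change of each member between siSTAU1 and siCTRL in LS180 (x axis; n = 2 libraries per group, bars for the SE), grouped by role, with filled points for genes called. All points lie between -0.45 and 0.44, with PNRC2 highest and TTC37 lowest.

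After actinomycin D some members lost share of the library and others gained it. CPM after a transcription block are relative to the RNA that remains, so a rise is a larger share of the library and not a measured gain of molecules. At 4 h, 16 members rose and 19 fell in LS180, against 26.6% and 31.1% of all genes. In HCT116, 20 rose and 12 fell, against 26.2% and 23.7%. At 2 h the counts were 8 and 14 in LS180 (13.5% and 23.9% of all genes) and 9 and 9 in HCT116 (13.8% and 17.1%). The rises in LS180 at 2 h depended on the scaling: they were 17 with RLE factors or DESeq2, 20 without a filter, 4 with total library size and 0 on the scale of ribosomal protein genes. All genes moved likewise, from 2329 rises as reported to 4863 (RLE factors), 4927 (DESeq2), 4921 (no filter), 1095 (total library size) and 54 (ribosomal protein genes). In HCT116 at 2 h, 4 members rose with total library size and 0 on the scale of ribosomal protein genes, beside 685 and 33 of all genes. With total library size 8 members rose at 4 h in LS180 and 10 in HCT116, beside 1893 and 2274 of all genes. The median change at 4 h was -0.07 in LS180 and 0.10 in HCT116, beside 0 and 0.02 over all genes. The sign of both medians depended on the processing. That of LS180 was 0.06 with RLE factors or DESeq2, 0.05 without a filter and 0.09 without 4 h libraries 2 and 3, and that of HCT116 was -0.01 with total library size and -0.295 on the scale of ribosomal protein genes. The 2 h and 4 h comparisons share their 0 h libraries. Single libraries moved some counts: for LS180 at 2 h the rises were 5, 4 and 5 without 0 h library 1, 2 or 3, and 3, 16 and 5 without 2 h library 1, 2 or 3. Without LS180 2 h library 2, 4309 of all genes rose there. For HCT116 at 2 h the member rises were 4 without 2 h library 2 and 5 without 2 h library 3. At 4 h they were 12 without 4 h library 3. Over all genes 1032 rose without HCT116 2 h library 3, and 3396 without HCT116 4 h library 3. Without LS180 4 h libraries 2 and 3, a fit chosen after seeing the data, 12 members fell in LS180 at 4 h.

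At 4 h, 12 members fell in both lines, 14 rose in both and 0 had opposite calls. The shares of all genes called alike or oppositely in both lines were not computed. These counts therefore do not show whether the members differ from other genes. CNOT4, TOB1, TOB2, DCP1A, DCP1B, PNRC2, EXOSC3, EXOSC4 and EXOSC6 were lower at both times in both lines. CNOT1, CNOT6, PAN3, XRN1 and DIS3L were called at neither time in either line. Scaling to ribosomal protein genes moves the median of all genes at 4 h to -0.54 in LS180 and -0.33 in HCT116. On that scale the called falls stayed falls, whereas of the called rises 14 in LS180 and 14 in HCT116 turned negative and LSM5 alone was still called higher in each line.

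**Figure D3:**
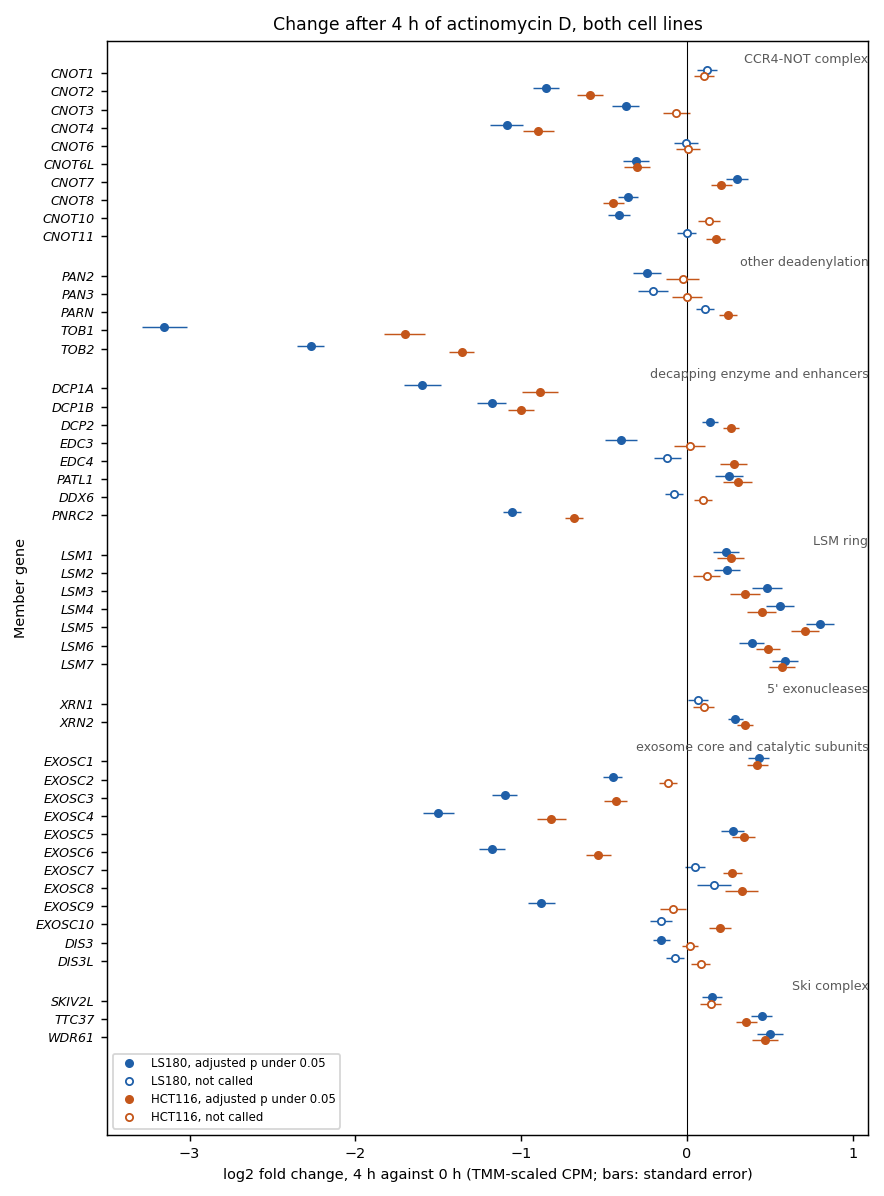
Log2 fold change of each member after 4 h of actinomycin D against 0 h in LS180 (blue) and HCT116 (orange), n = 3 libraries per group, with bars for the SE and filled points for genes called. TOB1 is lowest in both lines (-3.15 and -1.70) and LSM5 highest (0.80 and 0.71).

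TOB1 had the largest fall among the members. In LS180 its 3 libraries were at 28.6, 30.6 and 29.2 CPM at 0 h, 6.92, 7.10 and 7.54 at 2 h, and 4.25, 2.62 and 3.03 at 4 h. In HCT116 they were at 29.4, 25.4 and 23.1 CPM, then 14.4, 13.1 and 13.3, then 9.23, 7.36 and 7.32. No time overlapped with another in either line, and 4 h was 8.90-fold lower than 0 h in LS180 (SE 0.14 on the log2 scale; edgeR adjusted p = 4.24e-13) and 3.26-fold lower in HCT116 (edgeR adjusted p = 1.21e-09). TOB1 shares 281 exonic bases with TOB1-AS1 on the other strand, and the strand setting of the counting is not given in the sources used here.

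Its paralog TOB2 fell from 48.2, 47.7 and 45.4 CPM to 11.5, 8.83 and 8.95 CPM at 4 h in LS180, 4.82-fold lower, and from 60.6, 60.2 and 62.5 to 25.7, 24.0 and 21.7 CPM in HCT116, 2.57-fold lower. CNOT4, a ubiquitin ligase associated with CCR4-NOT, fell 2.12-fold in LS180 and 1.86-fold in HCT116. Of the 10 CCR4-NOT genes 6 fell and 1 rose in LS180 at 4 h, against 31.1% and 26.6% of all genes. In HCT116 4 of them fell and 2 rose, against 23.7% and 26.2%. CNOT7 rose 1.23-fold in LS180 and 1.15-fold in HCT116, both of which turned negative on the ribosomal protein scale. Its mean TPM in LS180 was 26.75 at 0 h and 27.05 at 4 h. The scaffold CNOT1 was at 305.4, 307.3 and 301.8 CPM at 0 h in LS180 and 357.1, 325.3 and 311.7 CPM at 4 h, a change of 0.12 (edgeR adjusted p = 0.0944).

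Within the decapping complex the DCP1 paralogs and PNRC2 fell while DCP2 rose slightly. DCP1A, which activates DCP2, was at 33.4, 32.5 and 33.4 CPM at 0 h in LS180 and 14.1, 9.98 and 8.64 CPM at 4 h, 3.02-fold lower (edgeR adjusted p = 4.34e-10). In HCT116 DCP1A fell 1.85-fold. DCP1B fell 2.26-fold in LS180 and 2.00-fold in HCT116, and PNRC2 2.08-fold and 1.61-fold, with no overlap between 0 h and 4 h. DCP2 itself was 1.10-fold higher in LS180 and 1.2-fold higher in HCT116 at 4 h, and it turned negative on the ribosomal protein scale in both lines and with total library size in LS180 (-0.06).

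Of the LSM ring 7 of 7 rose in LS180 and 6 of 7 in HCT116 at 4 h, against 26.6% and 26.2% of all genes. The ring medians were 0.48 and 0.45, beside 0 and 0.02 over all genes. In mean TPM in LS180, LSM1 went from 12.77 at 0 h to 11.78 at 4 h and LSM2 from 40.58 to 38.02. LSM3, LSM4, LSM5, LSM6 and LSM7 were higher at 4 h in mean TPM too. On the ribosomal protein scale LSM1, LSM2, LSM3, LSM4 and LSM6 turned negative in LS180, and LSM1 and LSM3 in HCT116. LSM5 was at 57.3, 53.6 and 56.3 CPM at 0 h in LS180 and 82.9, 102.4 and 106.3 CPM at 4 h, 1.74-fold higher (edgeR adjusted p = 1.48e-07). In HCT116 LSM5 went from 46.0, 48.8 and 45.0 to 68.7, 77.8 and 81.9 CPM, 1.63-fold higher. LSM7 rose 1.51-fold and 1.49-fold, LSM4 rose 1.47-fold in LS180, and LSM6 rose 1.40-fold in HCT116. In TMM-scaled CPM, LS180 library 1 at 4 h was lowest of its group for all 7 LSM genes. For LSM1 and LSM2 it lay within the 0 h range. In TPM the same library was highest of its group for all 7, with LSM5 at 61.43, 50.92 and 41.99 TPM in libraries 1, 2 and 3. The order of these libraries thus depends on the scale. XRN2 rose 1.22-fold in LS180 and 1.27-fold in HCT116, turning negative on the ribosomal protein scale in both. Its mean TPM in LS180 was 20.54 at 0 h and 20.67 at 4 h. The log2 changes of XRN1 were 0.07 and 0.10, neither called.

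Exosome subunits split. EXOSC4 fell from 34.2, 34.8 and 32.7 CPM to 14.6, 10.4 and 10.9 CPM at 4 h in LS180, 2.83-fold lower, and 1.76-fold in HCT116. EXOSC6 fell 2.26-fold and EXOSC3 2.14-fold in LS180, and 1.45-fold and 1.35-fold in HCT116, with 0 h and 4 h libraries apart. EXOSC1, a cap subunit, went the other way, from 20.9, 20.8 and 21.6 to 25.5, 29.6 and 30.3 CPM in LS180, 1.35-fold higher, and 1.34-fold in HCT116. The Ski subunits TTC37 and WDR61 rose 1.37-fold and 1.42-fold in LS180 and 1.28-fold and 1.38-fold in HCT116. EXOSC1, TTC37 and WDR61 in LS180, and TTC37 in HCT116, turned negative on the ribosomal protein scale. In TPM the 0 h and 4 h libraries of LS180 overlapped for EXOSC1 and TTC37 but not for WDR61.

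**Figure D4:**
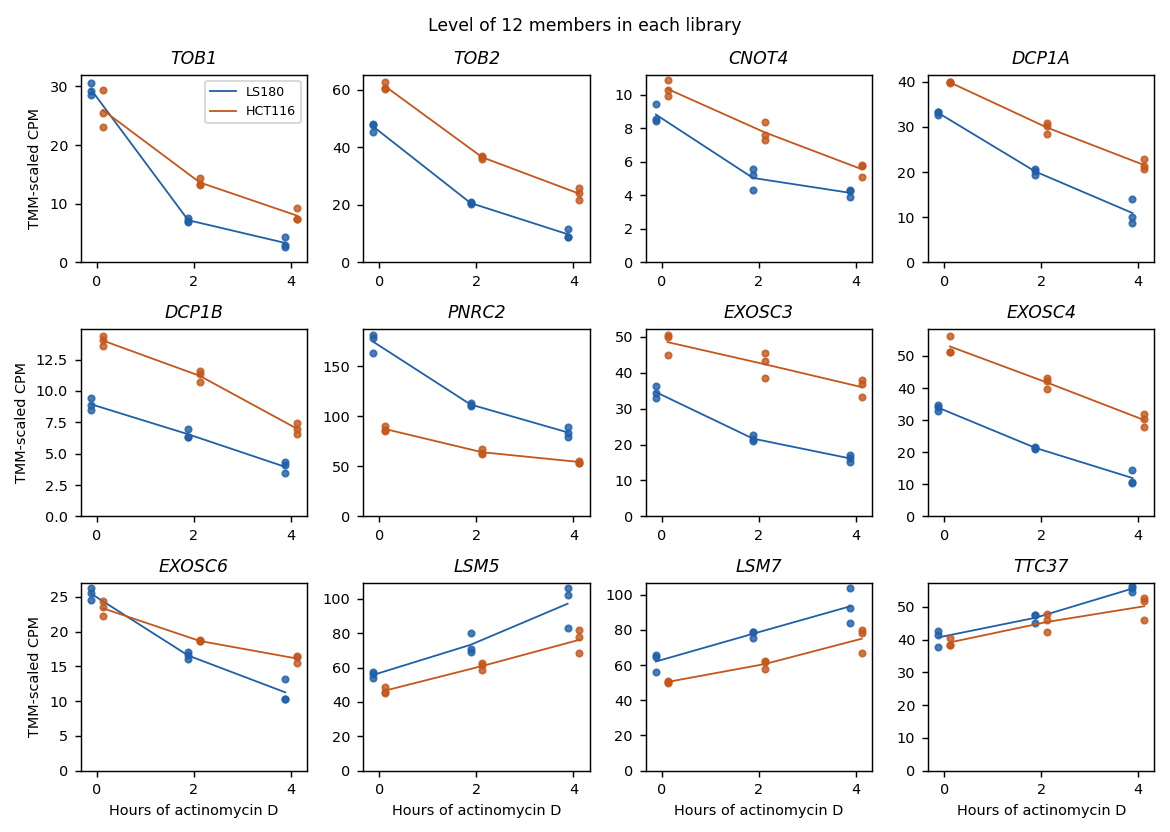
TMM-scaled CPM of 12 members in each library (points) with group means joined by lines, at 0, 2 and 4 h of actinomycin D in LS180 (blue) and HCT116 (orange), n = 3 libraries per group. Group means fall with time in both lines in 9 panels and rise in those of LSM5, LSM7 and TTC37.

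The difference between the lines in the 4 h change was tested directly. Of the 47 members, 12 had a higher change in HCT116 (25.5%, against 12.3% of all genes) and 0 a lower one (against 1.33%). DESeq2 called 9 members higher and 0 lower, beside 1671 and 625 of all genes. At an unadjusted p under 0.05 edgeR gave 18 members higher and 0 lower. At 2 h, 4 members were called higher and 0 lower (against 5.24% and 0.394% of all genes). DESeq2 called 3 and 0 there, beside 693 and 179 of all genes, and an unadjusted p under 0.05 gave 10 and 0. The shares of all genes at an unadjusted p were not computed, so those counts have no background beside them. Without LS180 4 h library 1 the lower calls at 4 h came to 7 members, beside 2536 of all genes, against 230 of all genes as reported. The lower calls thus rose over all genes and not only in the members. Without HCT116 4 h library 1, 1 member was lower. Without LS180 2 h library 2, HCT116 2 h library 2 or HCT116 2 h library 3, 1 member was called higher at 2 h. Without HCT116 2 h library 2, 365 of all genes were called higher, against 905 as reported.

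TOB1 differed most: its 4 h change was 1.45 higher in HCT116 (SE 0.18; edgeR adjusted p = 1.92e-05), that is -1.70 against -3.15. TOB2 differed by 0.91 and the exosome subunit EXOSC9 by 0.79. EXOSC9 was at 31.2, 30.3 and 32.5 CPM at 0 h in LS180 and 20.01, 15.04 and 16.02 CPM at 4 h. In HCT116 it was at 35.7, 41.1 and 40.2 CPM and then 34.9, 37.2 and 38.3 CPM, which overlap. The calls of TOB1, TOB2 and EXOSC9 held under every alternative. Without LS180 4 h libraries 2 and 3 these 3 calls alone were left of the 12. EXOSC9 shares 254 exonic bases with CCNA2 on the other strand. DCP1A (0.71), EXOSC4 (0.68), EXOSC3 (0.67) and CNOT10 (0.54) were also called, and their calls were lost without those libraries.

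Genes that work with the members, 34 in all, were listed beside them. With siSTAU1, 8 rose and 15 fell, against 23% of all genes in each direction. The poly(A)-binding protein gene PABPC4 rose 1.70-fold, and TNRC6A, which recruits CCR4-NOT to microRNA targets, fell 1.63-fold. After 4 h of actinomycin D, 6 rose and 21 fell in LS180, against 26.6% and 31.1% of all genes. In HCT116, 10 rose and 14 fell, against 26.2% and 23.7% of all genes. BTG2, a TOB relative, was at 31.0, 28.8 and 30.1 CPM at 0 h in LS180 and 1.56, 1.35 and 1.39 CPM at 4 h, 20.8-fold lower, and it fell 6.15-fold in HCT116. BTG1 fell 7.88-fold and 6.94-fold, and NOCT, a relative of the CCR4 deadenylases, 7.42-fold and 4.82-fold. PABPC1 rose 1.43-fold in LS180 and 1.31-fold in HCT116.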

How the data were processed

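The members and lists were chosen with earlier results of these data known. The authors deposited, for each of 22 libraries, RSEM expected counts, TPM and effective lengths per gene; the tools named in the submitters' processing notes are cutadapt, STAR 2.7 and RSEM 1.3.1, and the builds are hg38 (siRNA libraries) and hg19 (actinomycin D). The strand setting and annotation release were not given in the sources used here. RSEM divides reads shared by near-identical genes, so members with pseudogene copies (LSM3 has 4 by name) are less certain.

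Expected counts were rounded and fitted with edgeR 4.0.16 (TMM, filterByExpr, quasi-likelihood test, two-sided) under R 4.3.3, with Benjamini-Hochberg adjustment over 14073 siRNA or 17256 actinomycin D genes. The SE is the absolute log2 change over the square root of F. TPM gave levels only. The experiments differ in build and RNA selection, so their levels were not compared. Named are up to 3 called members with the largest change per comparison, role and direction, and up to 3 called partner genes per direction; members named beyond this were chosen after their values were seen. Same-numbered HCT116 libraries deviated together (correlations 0.234 to 0.708 over 9 pairs), so numbers pair samples there, a pairing read from the data and not from the labels. Coordinates and sequences came from GENCODE on GRCh38, 1 transcript per gene. The fits were tested on simulated data. Alternatives were RLE factors, DESeq2 1.42.0, no filter, a length offset, total library size, ribosomal protein scaling, a replicate block and each library left out.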

Additional observations from a re-analysis of the deposited data

Results flagged for a closer look

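For 12 members the 4 h change differed between HCT116 and LS180 in a test of the difference itself, all with the higher change in HCT116. The differences on the log2 scale were 1.45 for TOB1, 0.909 for TOB2, 0.794 for EXOSC9, 0.709 for DCP1A, 0.68 for EXOSC4, 0.669 for EXOSC3, 0.641 for EXOSC6, 0.541 for CNOT10, 0.401 for EDC4, 0.371 for PNRC2, 0.356 for EXOSC10 and 0.333 for EXOSC2. The edgeR adjusted p ran from 1.49e-05 for TOB2 to 0.0252 for EDC4. At 2 h the change differed for TOB1 by 1.1, for EXOSC3 by 0.48, for TOB2 by 0.449 and for DDX6 by 0.274, with edgeR adjusted p from 0.000339 for TOB1 to 0.0446 for DDX6. The calls of TOB1 at both times and of TOB2 and EXOSC9 at 4 h held under every alternative. LS180 4 h library 1 stood apart from libraries 2 and 3, and its part in the other calls was measured only by leaving libraries out.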

How the results depend on the processing

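Of 183 calls of a member in a comparison, 77 held under every alternative tried and 106 were lost or turned under at least 1; the cause was not tested. With n = 2 or 3 libraries per group, small changes are the least certain. Scaling to ribosomal protein genes turned 14 of 16 rises in LS180 and 14 of 20 in HCT116 at 4 h, and fewer elsewhere. With siSTAU1 it gave 1 member higher and 23 lower, with LSM1 at -0.0382 and EXOSC4 at -0.0109. In LS180 at 2 h it gave 0 higher, with XRN2 at -0.091, EXOSC5 -0.0421, TTC37 -0.0348 and WDR61 -0.0312. In LS180 at 4 h it gave 1 higher and 38 lower, with CNOT7 at -0.254, DCP2 -0.405, PATL1 -0.276, LSM1 -0.327, LSM2 -0.326, LSM3 -0.0831, LSM4 -0.00658, LSM6 -0.169, XRN2 -0.261, EXOSC1 -0.127, EXOSC5 -0.28, SKIV2L -0.387, TTC37 -0.0962 and WDR61 -0.0639. In HCT116 at 2 h it gave 0 higher, with PARN at -0.0483, DCP2 -0.0343, XRN2 -0.00203 and TTC37 -0.0123. In HCT116 at 4 h it gave 1 higher and 26 lower, with CNOT7 at -0.191, CNOT11 -0.224, PARN -0.153, DCP2 -0.135, EDC4 -0.117, PATL1 -0.0922, LSM1 -0.138, LSM3 -0.0504, XRN2 -0.0481, EXOSC5 -0.0564, EXOSC7 -0.124, EXOSC8 -0.0734, EXOSC10 -0.201 and TTC37 -0.0402. Between the lines at 0 h it gave 6 lower, with CNOT1 at 0.0719, PAN3 0.0596, LSM5 0.0121 and WDR61 0.0093, and for the line difference at 2 h 1 higher. It moved the median of all genes to -0.252 at 2 h in LS180, -0.194 at 2 h in HCT116, 0.168 between the lines at 0 h and 0.212 for the line difference at 4 h. Over all genes this scaling gave 903 higher and 5537 lower for siSTAU1. At 4 h it gave 127 and 10719 of all genes in LS180, and 112 and 7317 in HCT116.

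With total library size, which moves the median of all genes in LS180 at 4 h to -0.196, the rises were 4 and 8 at 2 and 4 h in LS180, 4 and 10 in HCT116, and 1 for the line difference at 2 h, with DCP2 at -0.0603 and SKIV2L at -0.0432 in LS180 at 4 h. For siSTAU1, DESeq2 called 8 lower, beside 2293 of all genes. An effective length offset called 6 higher and 6 lower, beside 2189 and 2233. The rises in LS180 at 2 h were 17 with RLE factors, 17 with DESeq2 and 20 without a filter, beside 4863, 4927 and 4921 of all genes. In each of those fits 7 members were lower in HCT116 at 0 h, beside 6544, 6486 and 6978 of all genes. The line difference at 2 h had 2 higher with RLE factors and 1 without a filter, beside 576 and 616. Without LS180 4 h libraries 2 and 3, a choice made after seeing the data, 12 members fell in LS180 at 4 h, 3 were higher in the line difference at 4 h, and PAN2 in LS180 was at 0.0836. Leaving out the HCT116 libraries numbered 1, also chosen after seeing the data, moved no count of members by over 1.5 times.

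Leaving out each library in turn gave 4 to 10 higher and 7 to 13 lower for siSTAU1, 3 to 16 and 10 to 14 for LS180 at 2 h, 13 to 21 and 17 to 19 for LS180 at 4 h, 4 to 10 and 8 to 9 for HCT116 at 2 h, and 12 to 20 and 12 to 13 for HCT116 at 4 h. For the lines at 0 h it gave 20 to 24 and 12 to 14, for the line difference at 4 h 8 to 14 and 0 to 7, and for that at 2 h 1 to 4 and 0 to 0. Over all genes the ranges were 1478 to 4309 higher and 3007 to 3762 lower for LS180 at 2 h. For LS180 at 4 h they were 4107 to 5969 and 4814 to 5128. For HCT116 they were 1032 to 2083 and 2576 to 2688 at 2 h, and 3396 to 4492 and 3833 to 4285 at 4 h. For the line difference they were 1051 to 2101 and 136 to 2536 at 4 h, and 365 to 935 and 44 to 116 at 2 h. A lone siRNA library was assumed to vary like the other group.

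Same-numbered libraries correlated at -0.0269 for siRNA and from -0.42 to 0.26 in LS180, which shows no pairing by number there and does not exclude it. With n = 2 the libraries of a siRNA group deviate equally and oppositely from their mean, so the siRNA value is a single one. With the replicate block the counts were 13 higher and 14 lower for siSTAU1, 8 and 14 for LS180 at 2 h, 17 and 21 for LS180 at 4 h, 13 and 9 for HCT116 at 2 h, 21 and 13 for HCT116 at 4 h, 25 and 13 between the lines, 12 and 0 for the line difference at 4 h, and 5 and 0 at 2 h. Of the 183 calls the block lost 1, that of WDR61 in LS180 at 2 h, and it changed no other.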
